A study of Mus musculus with 21 samples.

Results

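Chemokine receptors are the surface proteins through which leukocytes read chemokine gradients, and 6 of their genes were followed here across microglia and infiltrating myeloid cells of the injured mouse brain. The genes were Cx3cr1, Ccr2, Ccr1, Cxcr2, Cxcr4 and Ccrl2. They were taken by symbol from a table of 45706 genes in 21 RNA-seq libraries, and all 6 were among the 23815 genes that entered the tests. Cells were sorted from the lesion of adult male mice after controlled cortical impact (CCI), an open-skull model of traumatic brain injury. The mice were C57BL/6 wildtype (WT) or carried the Fgg γ390–396A allele, whose fibrinogen γ chain is altered at residues 390 to 396 and lacks the motif that the leukocyte integrin CD11b/CD18 binds. Microglia were gated as CD45 low CD11b+ cells, at 40000 cells per library, and infiltrating myeloid cells as CD45 hi CD11b+ cells, at 25000 cells per library. Microglia came from sham-operated WT mice, which had a craniotomy and no impact, and from injured mice of each genotype, taken 1 d or 7 d after CCI. Infiltrating myeloid cells, which the labels call macrophages, came from both genotypes at 1 d post-CCI only. Each of the 7 groups held 3 libraries, and each library pooled tissue of 2 brains. There was no sham group of the mutant genotype, so both genotypes were compared with the WT sham controls.

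As background, a chemokine receptor is a protein with 7 membrane-spanning helices that couples to inhibitory G proteins and steers cell movement. CX3CR1 binds fractalkine and is a standard marker of microglia and patrolling monocytes. CCR2 brings inflammatory monocytes out of bone marrow and into tissue along CCL2. CCR1 binds CCL3, CCL5 and related ligands on monocytes and neutrophils. CXCR2 recruits neutrophils, CXCR4 holds them and other leukocytes in marrow through CXCL12, and CCRL2 is an atypical member that binds chemerin without signalling through G proteins. Cx3cr1 and Ccr2 are widely used to tell resident microglia from monocyte-derived cells in the brain.

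Levels are given as CPM (counts scaled to a common library total) after scaling of the libraries by the trimmed mean of M values (TMM), a correction for unequal composition. The deposited counts already have transcript length divided out, so levels are comparable between genes on a per-length scale. Library totals ran from 18896957 to 51875767 counts, and ribosomal RNA took 43.0% to 58.6% of them. A count of 3 corresponded to 0.0578 to 0.159 CPM before TMM scaling, and intervals below reflect the spread between pools.

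The sort was checked against marker lists. Summed over 10 microglial markers such as P2ry12 and Tmem119, the microglia libraries held 3062 to 12865 CPM and the infiltrating myeloid libraries 514 to 1222 CPM. Neutrophil markers (10 genes) summed to 106 to 868 CPM in microglia and 2664 to 12999 CPM in infiltrating myeloid cells, and the libraries labelled macrophages thus also held neutrophil transcripts. Monocyte markers (10 genes) summed to 15.7 to 193 CPM in microglia and 3011 to 5249.7 CPM in infiltrating myeloid cells. Border macrophage markers (8 genes) gave 5.35 to 271 against 1354 to 2222 CPM. Lymphocyte and dendritic cell markers (11 genes) were low in microglia, at 1.23 to 12.2 CPM, and reached 38.2 to 112 CPM in infiltrating myeloid cells. Red cell markers (5 genes) lay at 0.126 to 35.6 and 0 to 34.6 CPM, and neural and endothelial markers (9 genes) at 17.7 to 54.5 and 26.3 to 39.8 CPM. Immediate early genes that tissue dissociation can induce (10 genes) summed to 74.8 to 863 CPM in microglia and 746 to 2237 CPM in infiltrating myeloid cells. There were 4 microglia libraries that stood apart from their groups in monocyte transcripts. In replicate 1 of WT microglia at 1 d the 10 monocyte markers summed to 193 CPM, against 52.6 and 98.2 CPM in the other two. In replicate 1 of Fgg γ390–396A microglia at 1 d the sum was 94.4 CPM, against 26.3 and 36.4 CPM. In replicate 1 of WT microglia at 7 d it was 87.9 CPM, against 43.2 and 33.6 CPM, and in sham replicate 3 it was 60.4 CPM, against 15.7 and 16.6 CPM. The 10 neutrophil markers, in the same order, summed to 839 CPM against 171 and 562 CPM, and 435 against 132 and 106 CPM. For the last 2 of these libraries the neutrophil sums were 868 against 302 and 263 CPM, and 812 against 160 and 248 CPM. Sham replicate 1 stood apart in another way, with 863 CPM of the dissociation genes, against 108 and 147 CPM in the other sham libraries, and 5.35 CPM of the border macrophage markers, against 122 and 254 CPM. At least 9 of the 10 monocyte markers were above 0 in every microglia library, and 6 to 10 of the 10 neutrophil markers were. Results that rest on these libraries are therefore given also after leaving out, from each of the 5 microglia groups, the library with the highest monocyte marker sum. Those were replicate 1 of WT at 1 d, WT at 7 d and Fgg γ390–396A at 1 d, replicate 2 of Fgg γ390–396A at 7 d and sham replicate 3. This set was chosen after the data were seen. In sorted bulk samples, fewer cells of a type and less RNA per cell cannot be told apart.

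The receptors lie on chromosomes 1 and 9 in GRCm38 (GENCODE M21). Cxcr2 spans 74153989 to 74161246 on the plus strand of chromosome 1, and Cxcr4 spans 128588199 to 128592293 on its minus strand. The other 4 lie on chromosome 9. Ccrl2 is at 111054486 to 111057519 (minus strand), Cx3cr1 at 119901616 to 120069879 (minus strand), Ccr1 at 123962124 to 123968692 (minus strand) and Ccr2 at 124101950 to 124113557 (plus strand). One feature of the coding sequence sets Ccrl2 apart from the other members. The stretch below encodes the end of the third membrane helix, where signalling chemokine receptors carry an Asp-Arg-Tyr motif that G protein coupling needs. Bases are from the GENCODE M21 transcripts, 5′ to 3′ on the coding strand, and capitals mark the 3 codons aligned with that motif in Ccr1.
Cx3cr1: agcatcGACCGGTACcttgccatcgtc
Ccr2: acaattGATAGGTACttggctattgtt
Ccr1: acgattGACAGATACctggccattgtc
Cxcr2: agcatgGACCGCTACctggccattgta
Cxcr4: agcctgGACCGGTACctcgctattgtc
Ccrl2: cttgtgCAAGGATACagggtgttttcc
In 5 of the 6 genes the capitals encode the motif, with the same 9 bases in Cx3cr1 and Cxcr4, and in Ccrl2 they do not. The translated Ccrl2 product, at 360 residues, was 24.0% (Cxcr4) to 34.2% (Ccr2) identical to the other members, whereas Ccr1 and Ccr2 were 53.8% identical.

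Similar sequence could let reads be shared between genes. Of the distinct 31-base words in each member's transcripts, 0.111% (Cxcr4), 0.231% (Ccrl2), 0.642% (Ccr1), 3.28% (Cx3cr1) and 3.48% (Ccr2) also occurred in transcripts of another gene. The share was 12.1% for Cxcr2, and its most frequent partner was Dnajb14, which is no receptor, with 101 of 368 words. Cx3cr1 shares 78 exon bases with Gm33858 on the opposite strand, and the library kit does not mark strand.

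Microglia and infiltrating myeloid cells held opposite sets of these transcripts. Cx3cr1 made up 84.3% to 98.1% of the summed CPM of the 6 receptors in every microglia library. In infiltrating myeloid cells its share was 3.32% to 14.95%, and Ccr2 had the highest mean level. The ratio of Cx3cr1 to Ccr2 was 15.2 to 429 in microglia libraries and 0.143 to 0.472 in infiltrating myeloid libraries. In sham microglia the order of mean levels was Cx3cr1 (696 CPM), Ccrl2 (7.70), Ccr2 (5.38), Ccr1 (2.61), Cxcr2 (1.95) and Cxcr4 (1.93 CPM). Only Cx3cr1 stood clear of its neighbour there, and the ranges of each later pair in that order overlapped. In WT infiltrating myeloid cells the order was Ccr2 (352 CPM), Cxcr4 (210.3), Cxcr2 (167), Ccrl2 (164), Ccr1 (110.4) and Cx3cr1 (65.8 CPM). Ccr2 at the top and Cx3cr1 at the bottom did not overlap their neighbours, and the middle members did. In Fgg γ390–396A infiltrating myeloid cells Ccr2 (344 CPM) again stood clear at the top, and the neighbours from Cxcr2 (149 CPM) down to Ccrl2 (82.1 CPM) overlapped.

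**Figure D1:**
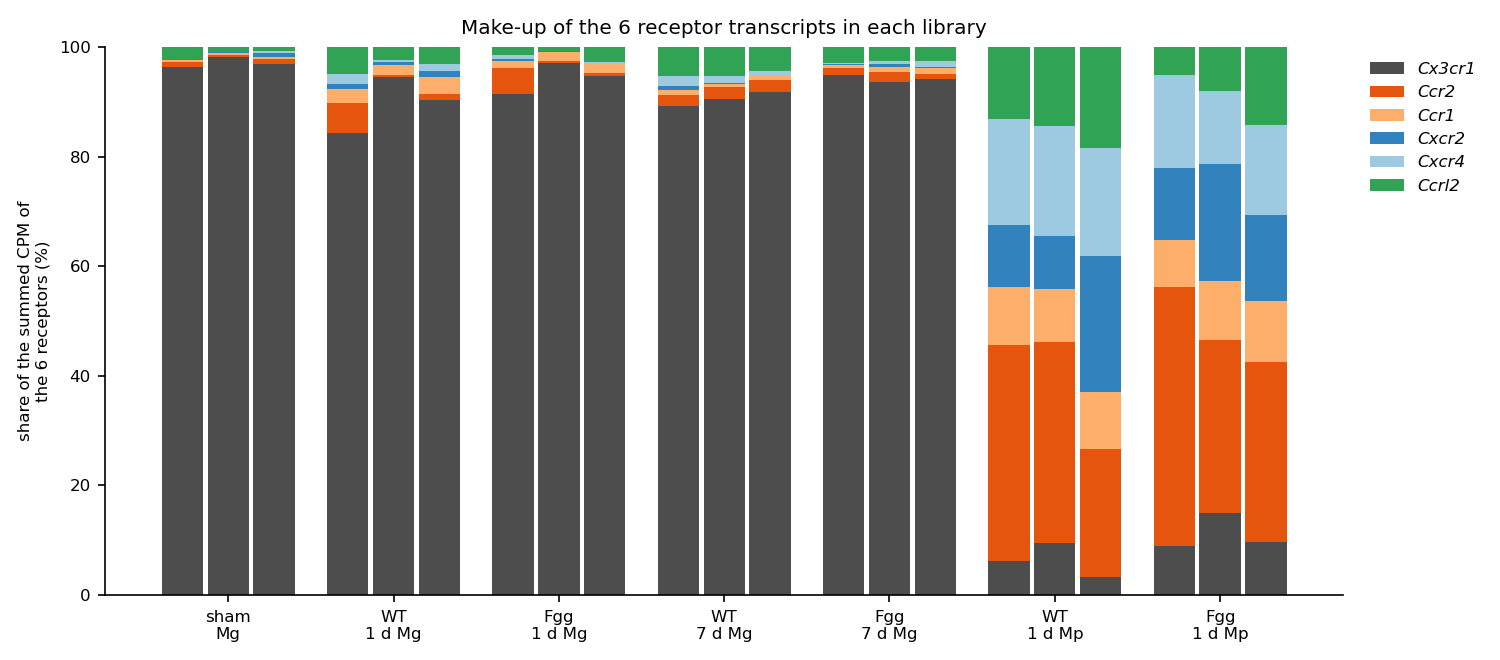
Share (%) of the summed CPM of the 6 receptors taken by each receptor, 1 stacked bar per library, with 3 libraries in each of 7 groups (Mg, microglia; Mp, infiltrating myeloid cells; Fgg, Fgg γ390–396A). Cx3cr1 fills 84.3% to 98.1% of every microglia bar and 3.32% to 14.95% of every infiltrating myeloid bar.

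The sort gates gave the largest differences, and all 6 receptors differed between infiltrating myeloid cells and microglia at 1 d in both genotypes. Ccr2 was 475, 321 and 260.2 CPM in the 3 libraries of WT infiltrating myeloid cells and 27.8, 1.99 and 5.27 CPM in WT microglia. The lowest infiltrating myeloid library lay above every microglia library. This was 30.2-fold higher (log2 fold change 4.91, SE 0.95, adjusted p = 0.0011). In Fgg γ390–396A mice Ccr2 was 483, 249 and 301 CPM against 27.7, 1.41 and 2.65 CPM, a log2 fold change of 5.01 (SE 0.95, adjusted p = 0.00075). Without the libraries with the highest monocyte marker sums, the Ccr2 difference was 6.65 in WT and 7.59 in Fgg γ390–396A mice on the log2 scale.

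Cx3cr1 went the other way. WT infiltrating myeloid cells held 76.2, 84.1 and 37.1 CPM of this fractalkine receptor, and WT microglia at 1 d held 422, 511 and 417 CPM. The groups did not overlap, and the level was 6.84-fold lower in infiltrating myeloid cells (log2 fold change −2.77, SE 0.28, adjusted p = 1.3e-06). In Fgg γ390–396A mice, 90.9, 117 and 89.4 CPM stood against 527, 605 and 509 CPM (log2 fold change −2.46, SE 0.28, adjusted p = 3.4e-06).

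The neutrophil receptor Cxcr2 was 138, 85.1 and 278 CPM in WT infiltrating myeloid cells and 4.70, 2.68 and 5.27 CPM in WT microglia, a 39.6-fold difference (log2 fold change 5.31, SE 1.03, adjusted p = 0.0011). In the mutant genotype it was 135, 168 and 144 CPM against 2.43, 0.604 and 0.281 CPM (log2 fold change 6.97, SE 1.12, adjusted p = 0.00015). The WT library with 278 CPM of Cxcr2 also had the highest sum of the 10 neutrophil markers, at 12999 CPM, of which S100a8 gave 7311 CPM. Retnlg, also on that list, did not follow this order. It was 212 CPM there, 199 and 97.7 CPM in the other WT infiltrating libraries, and 231, 378 and 227 CPM in the mutant ones. The part of neutrophils in the Cxcr2 level was not tested.

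Cxcr4, the CXCL12 receptor, was 233, 177 and 221 CPM in WT infiltrating myeloid cells and 8.82, 1.56 and 5.81 CPM in WT microglia (log2 fold change 5.29, SE 0.85, adjusted p = 0.00019). In Fgg γ390–396A mice it was 174, 104 and 151 CPM against 4.65, 0.629 and 1.04 CPM (log2 fold change 6.02, SE 0.88, adjusted p = 5.7e-05). Fold differences of Ccr1 and Ccrl2 between the gates were smaller in size. Ccr1 was 129, 85.1 and 117 CPM in WT infiltrating myeloid cells, 8.93-fold above WT microglia (log2 fold change 3.16, SE 0.35, adjusted p = 2.9e-06). In the mutant it was 87.8, 83.3 and 102 CPM, with a log2 fold change of 3.32 (SE 0.35, adjusted p = 1.5e-06). Ccrl2 was 159, 127 and 205 CPM in WT infiltrating myeloid cells, 9.38-fold above WT microglia (log2 fold change 3.23, SE 0.40, adjusted p = 1.2e-05), and the mutant difference was 3.20 (SE 0.40, adjusted p = 1.1e-05).

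Among all genes tested, 5.61% were called higher and 6.3% lower in WT infiltrating myeloid cells, and 6.96% higher and 9.7% lower in the mutant ones (absolute log2 fold change over 1, adjusted p under 0.05). All 6 receptors passed in each genotype, 5 higher and 1 lower, and they did so under each of the 30 fits run. The median log2 fold change of the 6 was 4.07 in WT and 4.16 in mutant mice, beside 0 and −0.13 over all genes tested.

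**Figure D2:**
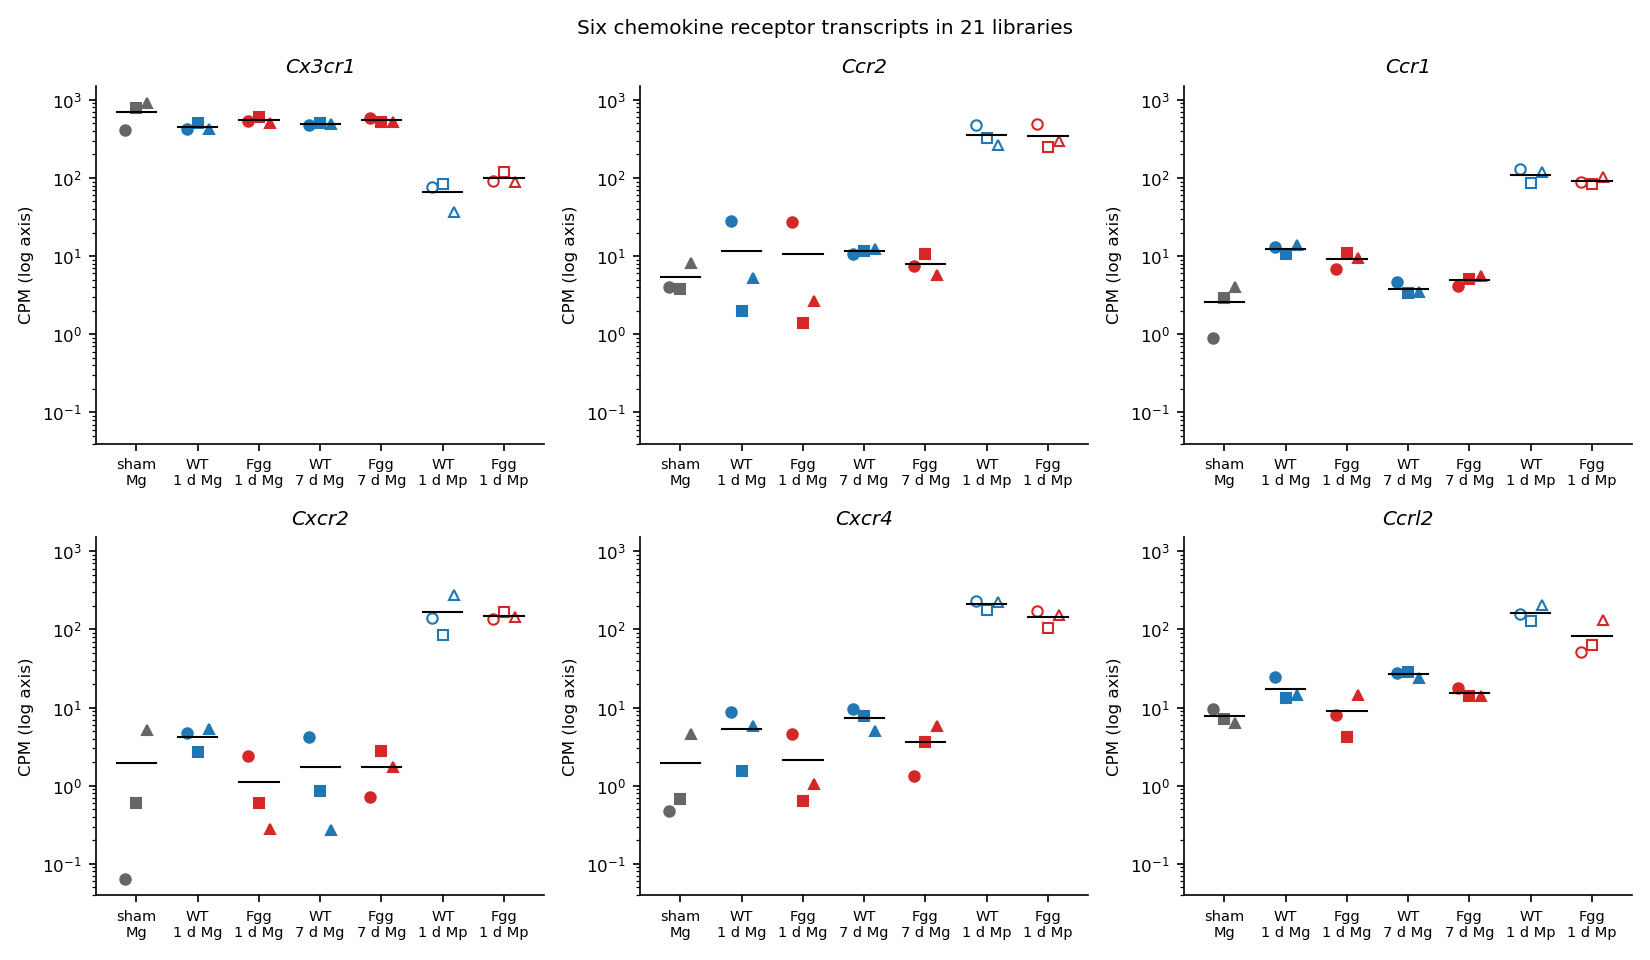
CPM (log axis) of each receptor in all 21 libraries. Points are libraries (circle, square and triangle for replicates 1, 2 and 3), open points are infiltrating myeloid cells, blue is WT, red Fgg γ390–396A and grey sham, and bars mark group means. All 6 receptors separate the open from the filled points at 1 d. Within microglia, Ccr1 lies clear of sham at 1 d and Ccrl2 at 7 d in both genotypes.

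At 1 d post-CCI, Ccr1 was the member that rose in microglia of both genotypes. Ccr1 was 0.892, 2.88 and 4.05 CPM in sham microglia and 12.9, 10.5 and 13.7 CPM in WT microglia at 1 d. Every WT library lay above every sham library, and the means (12.4 ± 1.67 against 2.61 ± 1.60 CPM, SD, n = 3 each) gave a fitted difference of 4.71-fold (log2 fold change 2.24, SE 0.34, adjusted p = 0.0001). In Fgg γ390–396A microglia Ccr1 was 6.91, 11 and 9.44 CPM, again clear of sham, with a log2 fold change of 1.79 (SE 0.34, adjusted p = 0.0013). Without the 5 libraries with the highest monocyte marker sums the difference was 2.68 in WT and 2.38 in the mutant on the log2 scale, both still called. The WT call was made under each of the 31 fits run and the mutant call under 29. The mutant call was missed without sham replicate 1, the sham library with the lowest Ccr1 and the high dissociation sum, where the log2 fold change was 1.39, and when only those 2 groups were fitted (adjusted p = 0.054).

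Ccrl2 was 9.69, 7.06 and 6.36 CPM in sham microglia and 24.7, 13.2 and 14.4 CPM in WT microglia at 1 d. The groups did not overlap (log2 fold change 1.18, SE 0.38, adjusted p = 0.038), but the difference was below the fold bar of 1.5 on the log2 scale that was set for this comparison. Without the 5 libraries it was 0.71 (adjusted p = 0.39). In Fgg γ390–396A microglia Ccrl2 was 8.04, 4.23 and 14.6 CPM, which overlapped sham (log2 fold change 0.21, SE 0.38, adjusted p = 0.86).

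Ccr2, Cxcr2 and Cxcr4 varied widely between pools of microglia. Ccr2 was 4.05, 3.83 and 8.27 CPM in sham, 27.8, 1.99 and 5.27 CPM in WT at 1 d, and 27.7, 1.41 and 2.65 CPM in the mutant at 1 d. The high value in each injured group was replicate 1, the library with the highest monocyte marker sum. The Ccr2 log2 fold changes against sham were 1.11 (SE 0.83, adjusted p = 0.41) in WT and 0.98 (SE 0.83, adjusted p = 0.55) in the mutant, and they turned to −0.13 and −1.05 without the 5 libraries. Cxcr2 was 0.0637, 0.607 and 5.18 CPM in sham and 4.70, 2.68 and 5.27 CPM in WT at 1 d (log2 fold change 1.06, SE 0.92, adjusted p = 0.48). The first of these sham values rests on 2 counts. The third, from sham replicate 3, lies within the injured range. Cxcr4 showed the same layout, at 0.478, 0.683 and 4.63 CPM in sham and 8.82, 1.56 and 5.81 CPM in WT at 1 d (log2 fold change 1.44, SE 0.76, adjusted p = 0.23). Sham replicate 3 held the most Cxcr2 and Cxcr4 of the sham libraries. With it alone left out, Cxcr2 (log2 fold change 3.70, adjusted p = 0.026) and Cxcr4 (3.22, adjusted p = 0.014) were called higher in WT microglia at 1 d. Both genes were also called without the 5 libraries, which include sham replicate 3, at 3.60 (adjusted p = 0.0053) and 2.65 (adjusted p = 0.015). These calls thus depend on leaving out the highest sham value of each gene. Those 5 were chosen by monocyte markers, not by neutrophil markers. Neutrophil markers in the libraries kept summed to 160 and 248 CPM in sham and to 171 and 562 CPM in WT at 1 d. In the mutant, Cxcr2 was 2.43, 0.604 and 0.281 CPM at 1 d and Cxcr4 was 4.65, 0.629 and 1.04 CPM. Neither passed in the mutant with or without the 5 libraries. The part of monocytes or neutrophils in these microglia values was not tested.

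**Figure D3:**
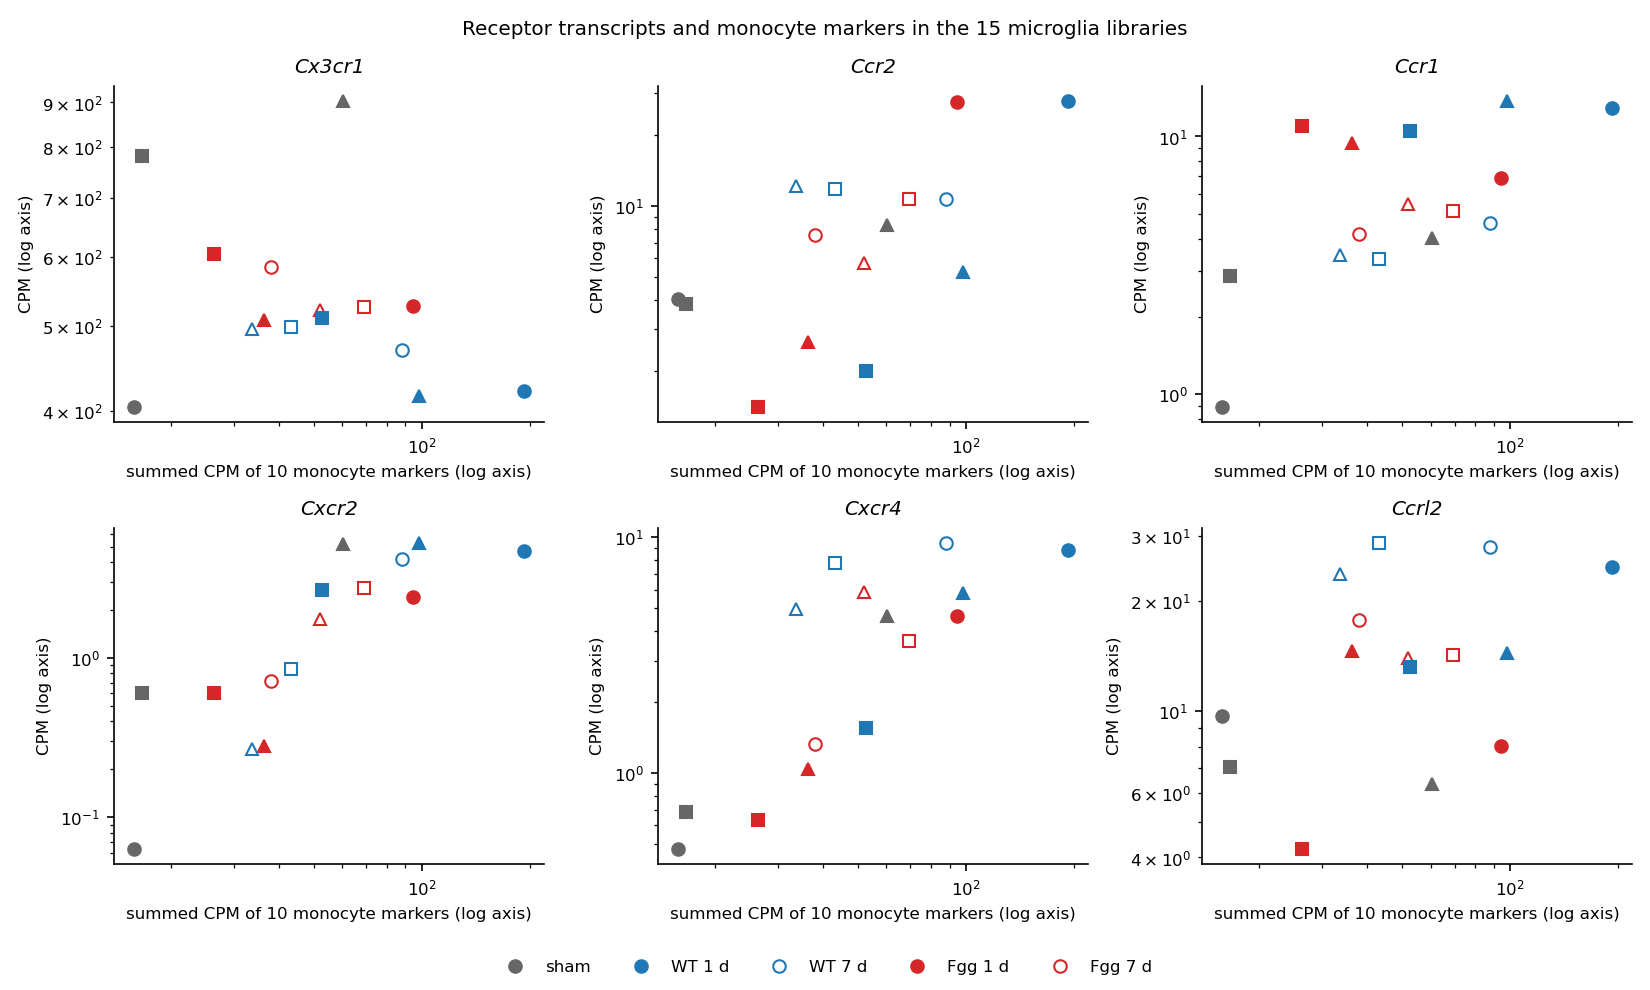
CPM of each receptor against the summed CPM of 10 monocyte markers (both log axes) in the 15 microglia libraries, with circles, squares and triangles for replicates 1, 2 and 3. The 2 libraries with about 28 CPM of Ccr2 are replicate 1 of each genotype at 1 d, with marker sums of 193 and 94.4 CPM, while the 1 d libraries hold 6.91 to 13.7 CPM of Ccr1 over the whole range of sums.

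Cx3cr1 in microglia was 405, 781 and 903 CPM in sham, 422, 511 and 417 CPM in WT at 1 d and 527, 605 and 509 CPM in the mutant at 1 d. The injured values lay within the sham range, whose lowest value was in sham replicate 1, the library with the high dissociation sum. The log2 fold changes were −0.63 (SE 0.26, adjusted p = 0.12) in WT and −0.35 (SE 0.26, adjusted p = 0.49) in the mutant, and neither passed. Without sham replicate 1 they were −0.90 (adjusted p = 0.016) and −0.62 (adjusted p = 0.16), below the fold bar. The part of dissociation in the sham values of Cx3cr1 and Ccr1 was not tested.

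Counted over the members, 1 of 6 (Ccr1) was called higher and 0 lower in WT microglia at 1 d, where 4.91% of all genes were called higher and 2.43% lower (absolute log2 fold change over 1.5, adjusted p under 0.05). In the mutant, 1 of 6 was called higher and 0 lower, beside 3.02% and 0.483% of all genes. At an unadjusted p under 0.05 from edgeR there were 3 members in WT and 1 in the mutant. Among the 23815 genes tested, 6592 in WT and 4861 in the mutant passed that bar. DESeq2 called 1 member in each.

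At 7 d the member that stood out in WT microglia was Ccrl2, which was 28.0, 28.8 and 23.7 CPM (26.8 ± 2.75, SD, n = 3) against 7.70 ± 1.76 CPM in sham. All 3 libraries lay above all sham libraries, a 3.48-fold difference (log2 fold change 1.80, SE 0.38, adjusted p = 0.011). In the mutant Ccrl2 was 17.7, 14.2 and 13.9 CPM, also clear of sham but with an adjusted p of 0.45 (log2 fold change 0.99, SE 0.38). The WT call was lost without sham replicate 2 (adjusted p = 0.061), without sham replicate 3 (adjusted p = 0.055) and without the 5 libraries (adjusted p = 0.11), with log2 fold changes of 1.66 to 1.74.

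Ccr1 fell from 1 d to 7 d in WT microglia. It was 4.63, 3.33 and 3.48 CPM at 7 d, 3.24-fold below the 1 d level with no overlap (log2 fold change −1.70, SE 0.34, adjusted p = 0.0022), a call made under each of the 31 fits. In the mutant it was 4.20, 5.13 and 5.49 CPM, below all 1 d libraries but not called (log2 fold change −0.88, SE 0.33, adjusted p = 0.15). Against sham, Ccr1 at 7 d was 0.54 (adjusted p = 0.56) in WT and 0.91 (adjusted p = 0.40) in the mutant on the log2 scale.

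Ccr2 at 7 d was even across pools in WT, at 10.7, 11.8 and 12.2 CPM, and less even in the mutant, at 7.55, 10.7 and 5.74 CPM. The WT values lay above every sham library without passing (log2 fold change 1.09, SE 0.83, adjusted p = 0.65). Against 1 d the Ccr2 differences were −0.02 in WT and −0.42 in the mutant, neither called. Without the 5 libraries they were 1.74 (adjusted p = 0.020) and 1.81 (adjusted p = 0.031), both called higher at 7 d. That set was chosen after the data were seen. At 1 d it includes the highest Ccr2 library of each genotype (27.8 CPM in WT, 27.7 CPM in the mutant), so these calls depend on that choice. Cxcr4 was 9.46, 7.76 and 4.95 CPM in WT at 7 d, above all sham libraries (log2 fold change 1.89, SE 0.77, adjusted p = 0.30). It was called without sham replicate 3 (3.67, adjusted p = 0.025) and without the 5 libraries (3.46, adjusted p = 0.011). Both fits leave out the highest sham value of Cxcr4 (4.63 CPM). In the mutant Cxcr4 was 1.33, 3.62 and 5.88 CPM. Cxcr2 at 7 d was 4.16, 0.853 and 0.271 CPM in WT and was 0.717, 2.76 and 1.76 CPM in the mutant, without passing against sham or 1 d. Its WT difference from 1 d was called when the 5 libraries, which include the one with 4.16 CPM, were left out (log2 fold change −2.80, adjusted p = 0.026). Neutrophil markers in the WT libraries kept summed to 302 and 263 CPM at 7 d and to 171 and 562 CPM at 1 d. Their part in this Cxcr2 difference was not tested. Cx3cr1 was 470, 500 and 497 CPM in WT and 584, 526 and 521 CPM in the mutant, with log2 fold changes against sham of −0.51 (adjusted p = 0.47) and −0.36 (adjusted p = 0.80).

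In counts, 1 of 6 members was called higher at 7 d against sham in WT, where 1.93% of all genes were called higher and 0.0924% lower. In the mutant 0 of 6 were called, beside 0.63% higher and 0.0336% lower, and DESeq2 called 0. At an unadjusted p under 0.05 from edgeR there were 2 members and 1808 of the 23815 genes tested. Between 7 d and 1 d, 1 of 6 fell in WT (2.68% of all genes higher, 4.38% lower). In the mutant 0 of 6 were called by edgeR and 0 by DESeq2 (0.663% of all genes higher, 2.88% lower). At an unadjusted p under 0.05 from edgeR there were 1 member and 3894 of the 23815 genes tested. These comparisons used an absolute log2 fold change over 1 and an adjusted p under 0.05. The comparisons of each genotype with sham share the same 3 sham libraries.

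**Figure D4:**
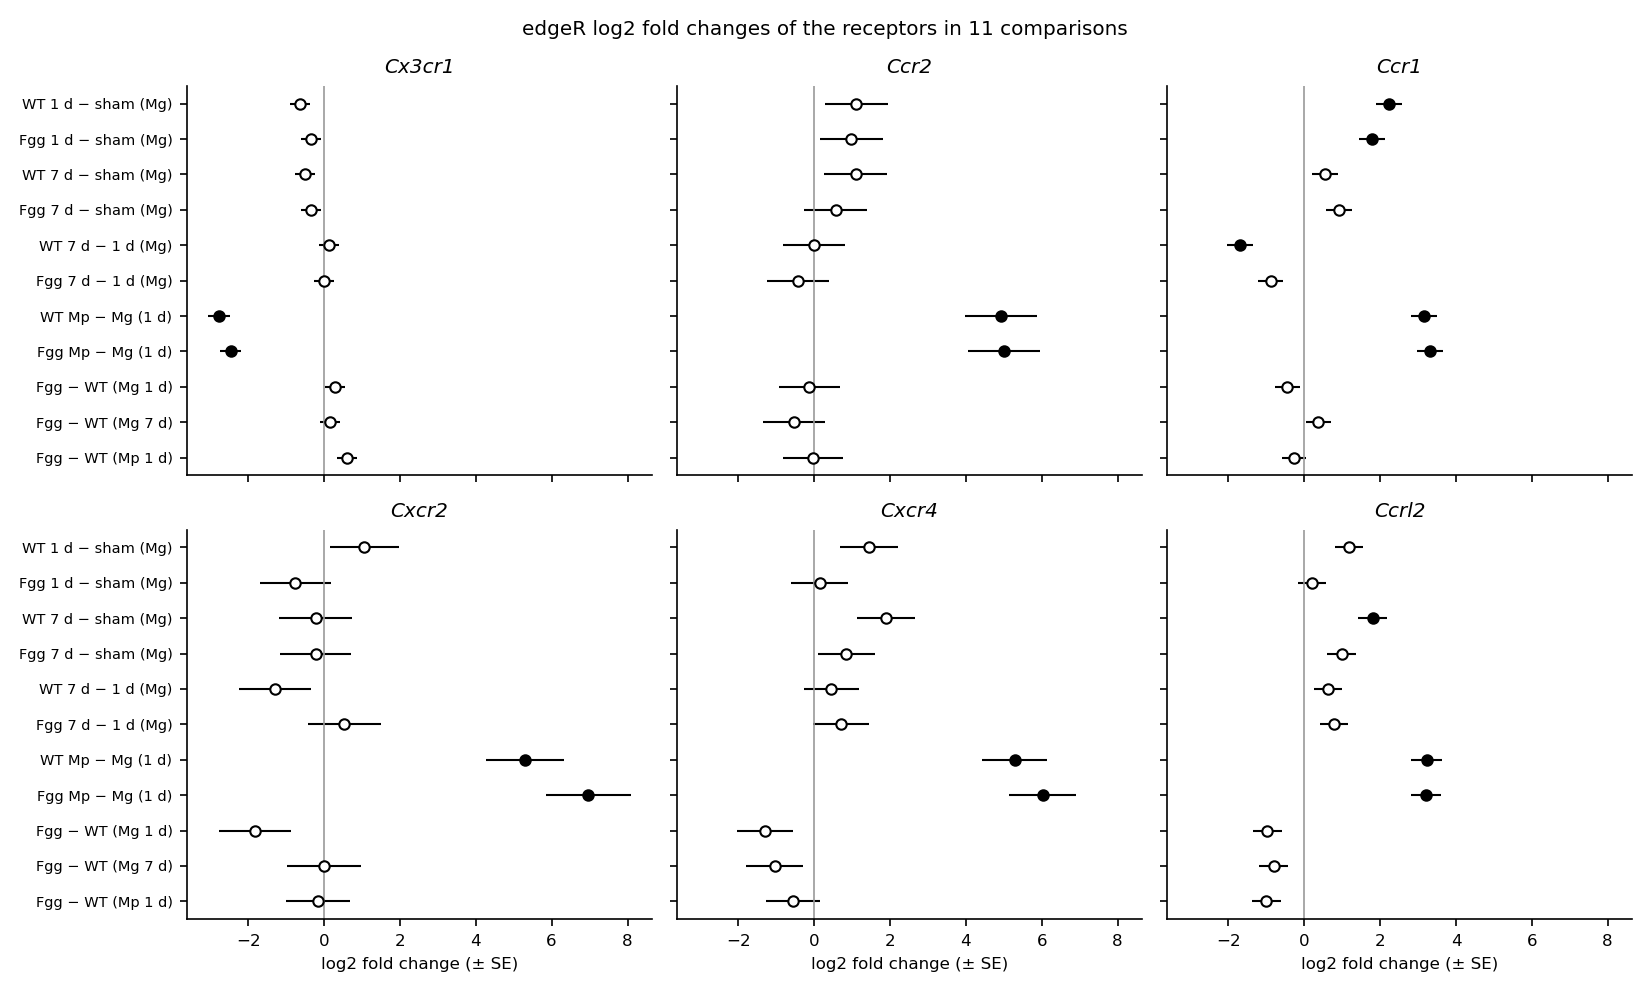
Log2 fold change with its SE (bars) for each receptor in 11 comparisons from the edgeR fit of all 21 libraries; filled points were called. The filled points lie at Mp against Mg for all 6 receptors, at 1 d against sham for Ccr1, at WT 7 d against sham for Ccrl2 and at WT 7 d against 1 d for Ccr1, and no comparison between genotypes is filled.

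Whether fibrinogen that cannot bind CD11b/CD18 alters these receptors was addressed by comparing genotypes within each cell type and time. No member was called in any of the 3 comparisons. Ccrl2 had the lower mean in the mutant each time. In microglia at 1 d it was 8.04, 4.23 and 14.6 CPM in the mutant and 24.7, 13.2 and 14.4 CPM in WT, with overlap (log2 fold change −0.97, SE 0.38, unadjusted p = 0.018, adjusted p = 0.89 from edgeR). In microglia at 7 d it was 17.7, 14.2 and 13.9 against 28.0, 28.8 and 23.7 CPM without overlap (log2 fold change −0.81, SE 0.37, unadjusted p = 0.043, adjusted p = 1 from edgeR). In infiltrating myeloid cells it was 51.4, 63.4 and 131 against 159, 127 and 205 CPM with overlap (log2 fold change −0.995, SE 0.37, unadjusted p = 0.015, adjusted p = 0.32 from edgeR). Without replicate 3 of the mutant infiltrating myeloid cells, its highest Ccrl2 library, the last difference was −1.51 (adjusted p = 0.059) and passed the bar of 0.1 used between genotypes.

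The other members differed less steadily. Cx3cr1 was 90.9, 117 and 89.4 CPM in mutant and 76.2, 84.1 and 37.1 CPM in WT infiltrating myeloid cells, without overlap (log2 fold change 0.59, SE 0.27, adjusted p = 0.41). Microglial marker sums in these infiltrating libraries were 766, 1222 and 961 CPM in the mutant and 819, 842 and 514 CPM in WT. The part of microglial transcripts in this Cx3cr1 difference was not tested. The genotype differences of Cx3cr1 in microglia were 0.28 at 1 d and 0.15 at 7 d, the latter without overlap and with an adjusted p of 1 from edgeR. Cxcr2 in microglia at 1 d was 2.43, 0.604 and 0.281 CPM in the mutant, all below WT (4.70, 2.68 and 5.27 CPM), with a log2 fold change of −1.82 (SE 0.94, adjusted p = 0.89). Monocyte marker sums in the same libraries were 94.4, 26.3 and 36.4 CPM in the mutant and 193, 52.6 and 98.2 CPM in WT. Neutrophil marker sums there were 435, 132 and 106 CPM in the mutant and 839, 171 and 562 CPM in WT. The part of either cell type in the Cxcr2 difference was not tested. At 7 d the Cxcr2 means were 1.75 and 1.76 CPM. Cxcr4 was lower in mutant infiltrating myeloid cells, at 174, 104 and 151 against 233, 177 and 221 CPM, without passing (log2 fold change −0.56, SE 0.70, adjusted p = 0.85). In microglia its differences were −1.30 at 1 d and −1.04 at 7 d (SE 0.75 and 0.74). For Ccr2 the differences were −0.12, −0.53 and −0.03 in the same order of 1 d microglia, 7 d microglia and infiltrating myeloid cells, and for Ccr1 they were −0.44, 0.37 and −0.28. Same-numbered Ccr2 values at 1 d were close, at 27.7 and 27.8, 1.41 and 1.99, and 2.65 and 5.27 CPM in mutant and WT, and with the replicate block the difference was −0.24 (adjusted p = 1 from edgeR). Leaving out replicate 1 of one genotype alone gave −2.54 (mutant) or 1.56 (WT).

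The share of all genes called between genotypes was 0.0336% higher and 0.021% lower in microglia at 1 d, 0.0252% and 0.0126% in microglia at 7 d, and 0.252% and 0.202% in infiltrating myeloid cells (absolute log2 fold change over 1, adjusted p under 0.1). The members gave 0 of 6 called by edgeR and 0 by DESeq2 in each. At an unadjusted p under 0.05 from edgeR, 1, 1 and 2 members passed, beside 1208, 795 and 2748 of the 23815 genes tested. Fitted with the replicate number as a block, the Ccrl2 difference in microglia at 1 d was −1.04 (adjusted p = 0.79). Whether the genotype difference itself changed was tested too. Between 7 d and 1 d in microglia 0 of 6 members and 0% of all genes were called, and between infiltrating myeloid cells and microglia at 1 d 0 of 6 members and 0.0462% of all genes (adjusted p under 0.1). Neither edgeR at an unadjusted p under 0.05 nor DESeq2 picked out a member there (0 of 6 each). Of the 23815 genes tested, 653 and 1994 had an unadjusted p under 0.05 from edgeR, in the same order.

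Among 20 other chemokine receptors, 19 had enough counts to be tested, and Ccr8 had 0 counts in all libraries. Cmklr1, the signalling chemerin receptor, was 101 ± 18.4 CPM in sham microglia and 75.8 ± 11.6 CPM in WT microglia at 1 d. Ccr7, which guides dendritic cells to lymph nodes, was 29.8 ± 19.2 CPM in WT and 28.7 ± 14.5 CPM in mutant infiltrating myeloid cells. Ccr7 rose in WT microglia at 1 d, from 0.564 to 3.51 CPM on average (log2 fold change 2.70, SE 0.84, adjusted p = 0.032). This call was lost with only the compared groups (adjusted p = 0.064), without the 5 libraries (0.17), and without sham replicate 1 (0.11), sham replicate 3 (0.13) or WT replicate 2 (0.12). Cxcr3 and Gpr182 were called lower there, but on few reads: WT libraries at 1 d held at most 2 counts of Cxcr3 and 1 count of Gpr182, and sham libraries at most 71 and 16. Both calls were lost with the compared groups alone, without the 5 libraries and without most single libraries, including libraries of other groups. In infiltrating myeloid cells 4 of 19 were called higher than in microglia in each genotype (5.61% of all genes in WT, 6.96% in the mutant). The lower calls were 0 of 19 (6.3% and 9.7% of all genes). Ccr7, Ccr3 and the scavenging receptor Ackr3 had the smallest p, with log2 fold changes in WT of 3.08, 2.74 and 3.88. Ackr3 lost its WT call without WT microglia replicate 2 or 3 or infiltrating replicate 2. That call was also lost with only the compared groups (adjusted p = 0.073 from edgeR). The mutant Ackr3 call was lost without mutant infiltrating replicate 3 (adjusted p = 0.070 from edgeR). In the other comparisons 0 of 19 were called by edgeR, and DESeq2 called at most 2. The median log2 fold change of these receptors was −0.51 in WT and −0.85 in mutant microglia at 1 d against sham, beside 0 over all genes.

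Among the ligands of the members many genes were called. Of 18 ligand genes, 11 rose in WT microglia and 8 in mutant microglia at 1 d (4.91% and 3.02% of all genes). The number that fell was 0 in either (2.43% and 0.483% of all genes). The CCR2 ligand gene Ccl12 went from 68.8 CPM in sham to 2714 CPM in WT and 2843 CPM in the mutant on average, with log2 fold changes of 5.30 (SE 0.40, adjusted p = 8.3e-08) and 5.37 (SE 0.40, adjusted p = 1.1e-07). Ccl2, the main CCR2 ligand, went from 6.06 to 234 and 143 CPM, and Mif, which binds CXCR4, from 56.9 to 571 and 442 CPM. At 7 d against sham, 6 of 18 in WT and 5 of 18 in the mutant were higher (1.93% and 0.63% of all genes). The smallest p at that time belonged to Ccl12 and to the CCR1 ligand genes Ccl5 (91.0 CPM in WT and 62.8 in the mutant, from 3.87 in sham) and Ccl3 (208 and 121, from 23.4 CPM). From 1 d to 7 d, 9 of 18 fell in WT and 5 in the mutant (4.38% and 2.88% of all genes), led by Mif, Ccl12 and Ccl2. Ccl12 was lower in infiltrating myeloid cells than in microglia, at 376 CPM in WT (log2 fold change −2.85, SE 0.35, adjusted p = 1.2e-05), while the CCR1 ligand genes Ccl6 (640.3 against 90.1 CPM) and Ccl9 (593 against 215 CPM) were higher. In all, 7 were higher and 1 lower in WT (5.61% and 6.3% of all genes) and 8 and 1 in the mutant (6.96% and 9.7%). Between genotypes 0 of 18 were called by edgeR, while DESeq2 called 4 in microglia at 1 d and 2 in infiltrating myeloid cells. Fitted levels at 1 d were lower in mutant microglia for 16 ligands and higher for 2 (median log2 fold change −0.92). At 7 d they were lower for 15 and higher for 2 (median −0.58). In infiltrating myeloid cells 12 were lower and 6 higher (median −0.35). The median over all genes was 0 in each of these comparisons. The median log2 fold change of the ligands was 3.62 in WT and 2.84 in the mutant at 1 d against sham, beside 0 over all genes.

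Genes that carry or damp the receptor signal were mostly not called. Of 26 such genes, 1 rose and 1 fell in microglia of each genotype at 1 d. Among all genes, 4.91% rose and 2.43% fell in WT, and 3.02% and 0.483% in the mutant. Fgr, a Src-family kinase of myeloid cells, rose from 1.02 CPM to 4.86 CPM in WT and 3.57 CPM in the mutant (log2 fold change 2.23 and 1.80). Rgs2, a regulator that shortens G protein signalling, fell from 205 to 46.4 and 64.0 CPM (log2 fold change −2.15, SE 0.27, adjusted p = 1.3e-05, and −1.68, SE 0.27, adjusted p = 0.00027). Without mutant 1 d replicate 2 the mutant Rgs2 difference was −1.49, short of the fold bar. At 7 d Fgr alone was called in each genotype, at 14.4 CPM in WT and 6.70 CPM in the mutant. The mutant Fgr call was lost with only the compared groups (adjusted p = 0.056 from edgeR). The share of all genes called higher was 1.93% and 0.63%. From 1 d to 7 d, 4 of 26 rose in WT and 3 in the mutant (2.68% and 0.663% of all genes). Rgs2, the phospholipase gene Plcb2 and the receptor kinase gene Grk3 led in both. In the mutant the Plcb2 and Grk3 calls were lost without any 1 of several libraries, down to log2 fold changes of 0.86 and 1.29, both without mutant 1 d replicate 2. In infiltrating myeloid cells 5 of 26 were higher than in microglia in WT (5.61% of all genes). In the mutant 6 were higher and 2 lower (6.96% and 9.7% of all genes). Fgr (57.2 CPM in WT) and the receptor kinase gene Grk5 (7.45 CPM) were higher in both genotypes, as were Rgs1, Rgs2 and Rgs18 (log2 fold change of Rgs2 2.10 in WT and 1.42 in the mutant), and Rgs10, a regulator rich in microglia, was lower in the mutant (84.1 against 210.2 CPM). None of the 26 was called between genotypes by edgeR, and DESeq2 called 1, in infiltrating myeloid cells.

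For each member the protein-coding genes with the most similar level over the 21 libraries were listed, among 7334 genes with a mean of at least 5 CPM, by Pearson's r of log2(CPM + 0.5). These values describe the data and carry no test, because the 6 infiltrating myeloid libraries set most of the spread. Cx3cr1 was closest to Tgfbr2 (r = 0.98), Cd81 (0.98) and Pde3b (0.98). Ccr2 was closest to Plbd1, Ahnak and Slfn1, and Cxcr4 to Cfp, Ahnak and Slfn1 (r = 0.98 for each). Ccr1 was closest to Rbms1, Pitpna and Arpc5 (r = 0.99 for each) and Cxcr2 to the calcium-binding protein genes S100a11 and S100a6 and to Tarm1 (r = 0.98 for each). Ccrl2 had the least close neighbours, Gm6377 (r = 0.95), Cenpa (0.94) and A530064D06Rik (0.94).

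Ccr1 and Ccrl2 are the members called in microglia after injury, so their upstream windows are shown. The RefSeq promoter table for GRCm38.p6 held 1 window for each member except Ccrl2, which had 3, and 250 bases before the start were searched on both strands for GAGGAA (the Ets core found in PU.1 sites), TGANTCA (AP-1), TTGCNNAA (C/EBP), GGACTTTCC (a κB site), TATAAA and CCAAT. Capitals mark matches, sequences read 5′ to 3′ toward the gene on the minus strand, and 1 base of the Ccrl2 window in an annotated exon was left off.
Ccr1 chr9:123968693-123968942: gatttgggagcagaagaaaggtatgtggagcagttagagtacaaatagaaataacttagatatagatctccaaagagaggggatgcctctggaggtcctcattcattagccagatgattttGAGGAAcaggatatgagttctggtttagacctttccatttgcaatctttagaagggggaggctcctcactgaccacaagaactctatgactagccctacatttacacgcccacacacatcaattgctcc
Ccrl2 chr9:111057520-111057768: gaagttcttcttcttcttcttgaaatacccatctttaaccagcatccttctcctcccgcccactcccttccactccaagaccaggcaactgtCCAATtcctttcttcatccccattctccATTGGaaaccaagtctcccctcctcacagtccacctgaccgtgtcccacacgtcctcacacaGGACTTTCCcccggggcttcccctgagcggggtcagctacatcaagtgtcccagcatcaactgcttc
The Ccr1 window held GAGGAA, as did 23.3% of 32851 windows of the same length. The Ccrl2 window held GGACTTTCC, found in 0.283% of windows, and CCAAT on each strand, found in 33.8%. No match in these 2 windows overlapped another. AP-1 letters were in 6.75%, C/EBP letters in 9.56% and TATAAA in 12.4% of windows, and none of them in these 2. The other windows of Ccrl2, with 139 and 140 bases in annotated exons, held no match to any of the motifs and are not shown. A match of letters is a description and was not tested as a binding site.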

How the data were processed

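RNA was measured by paired-end RNA-seq of libraries made with the Ovation RNA-seq System V2 kit. The authors processed reads with nf-core/rnaseq and deposited salmon gene counts, which are estimated counts scaled from TPM, a length-corrected abundance (build GRCm38), with no normalization between libraries. Here the expected counts were rounded to whole numbers (39.1% of values were not whole), 45143 of 45706 gene IDs were matched to GENCODE M21 symbols, and genes with at least 5 counts in total were kept. All 21 libraries in 7 groups were fitted with edgeR 4.0.16 (R 4.3.3; TMM, quasi-likelihood F test, 1 mean per group), with p-values adjusted by Benjamini-Hochberg over 23815 genes. SE is the log2 fold change divided by the root of F. The authors' notes name DESeq2 1.36.0 in R 4.2.0, and DESeq2 1.42.0 was an alternative here. The procedure was checked on simulated data. Replicates are separate pools of brains as the authors describe them, so p-values measure the spread between pools. That spread was estimated for each gene over all 7 groups together, not from the compared groups alone. No label says whether microglia and infiltrating myeloid libraries at 1 d came from the same brains, and the main fit treated them as independent.

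The members and gene lists were chosen with earlier results of these data known. Named genes were every member, up to 3 called genes with the smallest p per list (20 other receptors, 18 ligands, 26 signalling genes) and comparison, other receptors with a mean of at least 1 CPM, and the 3 nearest genes by correlation. One gene that this rule names is not reported here. S100a8, Retnlg, Ccr8, Rgs1 and Rgs18 were named after their values were seen. Replicate numbers are shared between groups. Deviations of same-numbered libraries correlated at over 0.1 in all 3 pairs in 1 of 11 comparisons, mutant against WT microglia at 1 d (r = 0.50, 0.26 and 0.11), so the numbers pair the libraries there by that criterion, although no label names a shared litter or day. Alternatives were a replicate block, other normalizations, filters, tests, thresholds and sample sets, each library left out, and, chosen after seeing the data, 5 microglia libraries left out together.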

Additional observations from a re-analysis of the deposited data

How the results depend on the processing

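Members called were the same in number under DESeq2, DESeq2 size factors, both other count filters, the replicate block, the fit of microglia alone and the table without ribosomal RNA. With a bar of 1 and 0.05, 2 members were called in WT at 1 d against sham (1 in the report), and with only the compared groups 0 in the mutant at 1 d against sham (1 in the report). Leaving out 5 microglia libraries, chosen after seeing the data, gave 3 in WT at 1 d against sham, 3 in WT at 7 d against 1 d and 1 in the mutant at 7 d against 1 d, with fewer samples per group. Leaving out single libraries gave 1 to 3 in WT at 1 d, 0 to 1 in the mutant at 1 d, 0 to 1 in WT at 7 d, each against sham, and 0 to 1 between genotypes in infiltrating myeloid cells; the libraries concerned are named in the report. The log2 fold changes that turned sign were all uncalled in the fit of all libraries, and the cause was not tested. Without the 5 libraries these were Ccr2 at −1.05 and −0.13 (mutant and WT, 1 d against sham), 1.81 and 1.74 (7 d against 1 d), 0.022 (genotype, infiltrating myeloid cells) and 0.067 (genotype effect at 7 d less that at 1 d); Ccrl2 at −0.10 (the same difference of effects); Cx3cr1 at 0.065 (mutant 7 d against 1 d); and Cxcr2 at 0.45, 1.91 and 0.80 (mutant 1 d, mutant 7 d and WT 7 d against sham). With DESeq2 size factors, filterByExpr and DESeq2 in turn, Ccr2 was 0.018, 0.026 and 0.018 between genotypes in infiltrating myeloid cells and 0.051, 0.012 and 0.050 in WT at 7 d against 1 d, Ccrl2 was 0.022, 0.038 and 0.019 (genotype effect in infiltrating myeloid cells less that in microglia), Cx3cr1 was 0.095, 0.038 and 0.095 in the mutant at 7 d against 1 d, and Cxcr2 was −0.010, −0.016 and −0.023 between genotypes in microglia at 7 d. The compared groups alone gave 0.030 for Ccr2, 0.020 for Ccrl2 and −0.0094 for Cxcr2 in these comparisons, and microglia alone gave −0.0062 for Cxcr2. With the replicate block, Ccr2 was 0.28 and 0.56 (7 d against 1 d, mutant and WT), Ccrl2 0.027 (difference of effects), Cx3cr1 0.0031 (mutant, 7 d against 1 d) and Cxcr2 0.037 (mutant 7 d against sham), and the block changed no member's call.

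Leaving out 1 library at a time also turned the sign of 21 of these differences. Ccr2 ranged from −1.43 to 1.4997 (mutant 1 d against sham), −0.58 to 1.65 (WT 1 d against sham), −0.94 to 1.99 (mutant 7 d against 1 d), −0.58 to 1.67 (WT 7 d against 1 d), −2.54 to 1.56 (genotype, 1 d microglia), −0.30 to 0.25 (genotype, infiltrating myeloid cells), −2.09 to 2.01 (genotype effect, 7 d less 1 d) and −1.60 to 2.51 (genotype effect, infiltrating less microglia). Cxcr2 ranged from −2.11 to 1.88, −0.78 to 2.41 and −1.88 to 2.41 (mutant 1 d, mutant 7 d and WT 7 d against sham), −0.52 to 1.62 (genotype, 7 d microglia) and −0.43 to 0.42 (genotype, infiltrating myeloid cells). Cxcr4 ranged from −1.27 to 1.92 (mutant 1 d against sham), −0.042 to 1.00 (WT 7 d against 1 d) and −0.30 to 1.67 (genotype effect, 7 d less 1 d). Ccrl2 ranged from −0.32 to 0.55 (mutant 1 d against sham), −0.18 to 0.69 and −0.54 to 0.51 (both differences of genotype effects), Cx3cr1 from −0.062 to 0.071 (mutant 7 d against 1 d) and Ccr1 from −0.0074 to 0.33 (genotype effect, infiltrating less microglia). With 3 pools per group, differences in Ccr2, Cxcr2 and Cxcr4 within microglia depend on single libraries. Over all genes, DESeq2 called 1195 lower in WT and 395 lower in the mutant at 1 d against sham (edgeR 579 and 115), and 1292 and 468 higher at 7 d against 1 d (edgeR 638 and 158). It called 723 higher and 102 lower in WT and 305 and 42 in the mutant at 7 d against sham (edgeR 459 and 22, 150 and 8). Between genotypes DESeq2 called 44 and 60 in microglia at 1 d, 40 and 40 at 7 d and 405 and 436 in infiltrating myeloid cells (edgeR 8 and 5, 6 and 3, 60 and 48). For the differences of genotype effects DESeq2 called 17 higher and 16 lower (7 d less 1 d) and 94 and 165 (infiltrating less microglia), where edgeR called 0 and 0, and 1 and 10. In infiltrating myeloid cells the replicate block gave 40 and 26 between genotypes, and the fit without the 5 libraries gave 32 and 14. Without those libraries 1481 and 1030 were called in mutant infiltrating myeloid cells against microglia (1658 and 2310 with them), and 0 for the difference of genotype effects between these cell types.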
